A study of Homo sapiens with 6 samples.

Results

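HSPA5, HSP90B1, DNAJB9, DNAJC3, PDIA4, SDF2L1, HERPUD1, CALR, EDEM1 and XBP1 encode chaperones, folding enzymes, degradation factors and a transcription factor of the endoplasmic reticulum (ER). They were taken as every probe whose gene name on the array was 1 of these 10 symbols, which gave 12 of 58201 probes and 10 of 43317 gene names. The genes DDIT3 and ATF3, which encode stress transcription factors, were read on the same arrays. Messenger RNA was measured in 22RV1, an established human prostate cancer line positive for SPINK1, on 6 Agilent arrays with 2 dyes. Every culture carried a lentiviral pLemiR vector and was kept in puromycin. The miR-338-5p line (pLemiR-338-5p) had replicates 1, 2 and 3, and the miR-421 line (pLemiR-421) had a sample labelled as a pool and replicates 1 and 2. The samples called replicates here carry the letter C and their number in the titles, and the labels do not explain the letter. The control carried pLemiR-RFP, which encodes a red fluorescent protein. Control RNA was labelled with Cy3 and miRNA line RNA with Cy5 on every array, with no swap of dyes, so any dye effect of a probe is part of its ratio. Both comparisons share the control. The labels give no passage, no number of clones and no contents of the pool. They also do not say whether samples of a line came from separate cultures, so p-values measure only the spread between these samples, which may be technical.

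Proteins that enter the ER are folded there by chaperones and by enzymes that form disulfide bonds. When unfolded proteins accumulate, sensors in the ER membrane start the unfolded protein response: IRE1 (gene ERN1) splices XBP1 messenger RNA, ATF6 is cleaved into a transcription factor, and PERK (gene EIF2AK3) slows translation while favouring that of ATF4. XBP1 and ATF6 are known to raise genes for chaperones and degradation, and ATF4 raises DDIT3, ATF3 and genes of amino acid supply. ATF4 also lies downstream of kinases outside the ER. Secretory epithelia such as the prostate depend on this machinery.

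The miRNAs that define the lines are shown with their seed, bases 2 to 8, in capitals, because a miRNA pairs with messenger RNAs mainly through it. The mature sequences are from RefSeq (GRCh38.p14) and have different seeds. They lie at chr17:81125923-81125944 on the minus strand and at chrX:74218392-74218414 on the minus strand.
miR-338-5p: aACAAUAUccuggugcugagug
miR-421: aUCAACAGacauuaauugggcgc

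Promoters of the members were searched on both strands in the 250 bases before the RefSeq start (GRCh38.p14). The ER stress element, ERSE (CCAAT, then 9 bases of any kind, then CCACG), was found in 4 of 10 members, namely HSPA5, HSP90B1, CALR and XBP1, and in 0.074% of 35116 promoter windows. ERSE-II (ATTGG, then 1 base of any kind, then CCACG) was found in 2 of 10 members, SDF2L1 and HERPUD1, and in 0.0513% of the windows. The unfolded protein response element TGACGTGG was found in 0 of 10 members and in 0.612% of the windows. The amino acid response motif TGATGNAA was found in 1 of 10 members, HERPUD1, and in 3.14% of the windows. No 2 matches in a member overlapped. ATF3 held 1 match to TGATGNAA, 191 to 184 bases before the first of its 2 listed starts, and 0 before the second. DDIT3 held no match to any of the 4 motifs before either of its listed starts. A match describes the letters only, and the absence of a match says only that these letters are not in the window.

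The promoters of HSPA5, HERPUD1 and XBP1 are printed because these 3 members had the same direction on all 6 arrays. Capitals mark the fixed letters of the matches. In HSPA5 (chr9:125241344-125241593, minus strand) the ERSE lies 66 to 48 bases before the start. In HERPUD1 (chr16:56931892-56932141, plus strand) the first match is to the amino acid response motif on the opposite strand, 176 to 169 bases before the start, and the second is the ERSE-II, 117 to 107 bases before it. In XBP1 (chr22:28800570-28800819, minus strand, the first of the starts listed) the ERSE lies 52 to 34 bases before the start.
HSPA5: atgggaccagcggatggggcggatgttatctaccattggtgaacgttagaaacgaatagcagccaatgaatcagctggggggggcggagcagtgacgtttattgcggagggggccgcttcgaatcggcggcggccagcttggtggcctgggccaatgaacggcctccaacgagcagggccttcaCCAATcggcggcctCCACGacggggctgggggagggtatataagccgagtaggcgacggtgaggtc
HERPUD1: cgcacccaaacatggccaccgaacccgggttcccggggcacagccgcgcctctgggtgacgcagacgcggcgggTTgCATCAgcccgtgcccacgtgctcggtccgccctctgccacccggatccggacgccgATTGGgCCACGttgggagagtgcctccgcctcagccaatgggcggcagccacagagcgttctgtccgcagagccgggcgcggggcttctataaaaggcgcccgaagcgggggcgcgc
XBP1: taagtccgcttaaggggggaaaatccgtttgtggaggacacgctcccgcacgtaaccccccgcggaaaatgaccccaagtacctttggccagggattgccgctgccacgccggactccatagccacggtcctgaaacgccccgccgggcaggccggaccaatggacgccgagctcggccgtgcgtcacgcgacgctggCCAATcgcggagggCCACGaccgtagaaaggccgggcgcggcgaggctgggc

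The ERSE matches of the other members are given for comparison with that of HSPA5. HSP90B1 had 2, of which the first, on the gene's strand, lies 194 to 176 bases before the start and the second, on the opposite strand, 89 to 71 bases before it. That of CALR lies 225 to 207 bases before the start on the opposite strand, and the ERSE-II of SDF2L1 lies 188 to 178 bases before it, also on the opposite strand. Each is written as it reads on the gene's own strand.
HSPA5: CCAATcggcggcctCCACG
HSP90B1, first: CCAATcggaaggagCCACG
HSP90B1, second: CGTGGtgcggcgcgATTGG
CALR: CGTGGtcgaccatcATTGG
XBP1: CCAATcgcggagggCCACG
SDF2L1: CGTGGaCCAAT
HERPUD1: ATTGGgCCACG

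**Figure D1:**
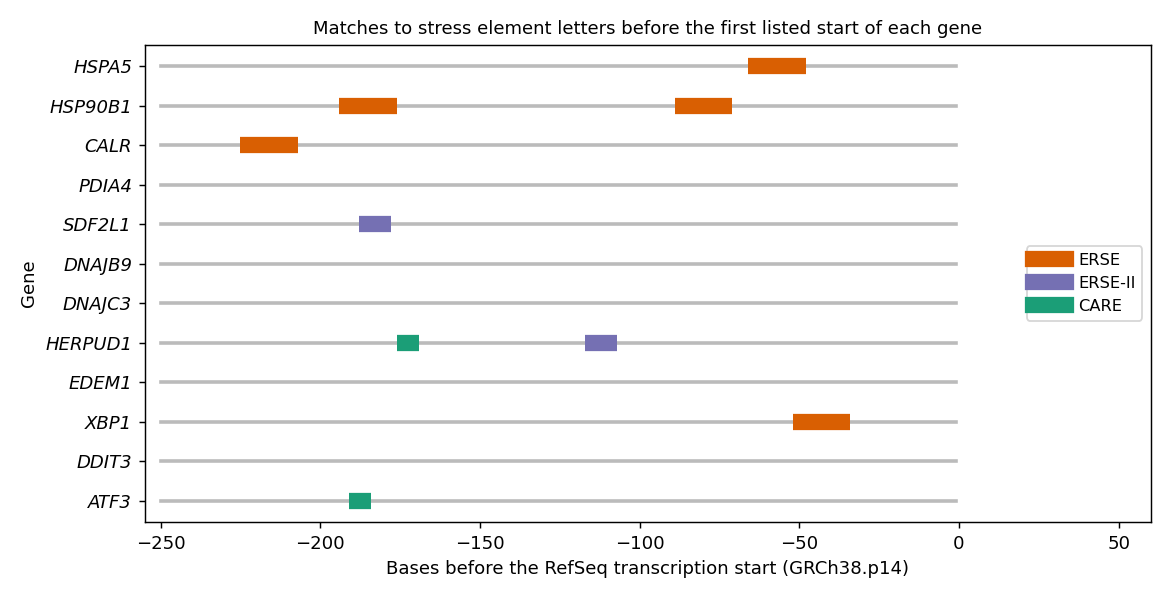
Positions of motif matches in the 250 bases before the RefSeq start of each member and of DDIT3 and ATF3; the horizontal axis is the distance to the start in bases and each mark is 1 match. HSP90B1 has 2 ERSE matches, and HERPUD1 is the member with both an ERSE-II and an amino acid response match.

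Values below are log2 ratios of the miRNA line over control (Cy5 over Cy3), after background correction and normalization within the array, and a negative value means less signal in the miRNA line. Across the series, 44.3% to 47.9% of gene spots were well above background in Cy3. The Cy3 shares were 47.9%, 47.6% and 47.3% on the miR-338-5p arrays and 44.4%, 44.3% and 44.4% on the miR-421 arrays. This share of the control thus differed with the line, and its part in the differences between the lines was not tested. In Cy5 the shares were 41.9% to 48.3%, where miR-421 replicate 1 was the lowest. Defining markers of 22RV1 were well above background in Cy3 on all 6 arrays for 9 of 9 genes. The same held for 3 of 5 fibroblast, 4 of 4 leukocyte and 2 of 3 endothelial markers, while COL1A2, COL3A1 and PECAM1 were above background on 0 arrays. All 10 members passed the filter, which required a signal well above background on at least 3 arrays in 1 of the dyes, and 11 of their 12 probes did so. Each gene is given by its kept probe of highest mean intensity, and all 10 such probes were above background in both dyes on all 6 arrays. A lower ratio cannot tell fewer cells that express a gene from less RNA per cell.

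Of the 10 members, 2 passed the test under miR-338-5p (limma, Benjamini-Hochberg adjusted p under 0.05), HERPUD1 and XBP1, both higher. Over all probes 8.95% passed, with 3.77% higher and 5.19% lower. Under miR-421, 3 of 10 passed: HERPUD1 and XBP1 were higher and DNAJC3 was lower. Over all probes 21.6% passed, with 9.19% higher and 12.5% lower. The median member ratio for miR-338-5p was -0.03 and for miR-421 -0.13, against -0.00062 and 0.0062 over all genes tested. On all 6 arrays, 2 of 10 members were above 0, against 12.7% of all probes, and 1 of 10, HSPA5, was below 0, against 17.2%. The members thus divided into a pair of raised genes, a fall of DNAJC3 under miR-421, and 7 genes that passed under neither miRNA.

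**Figure D2:**
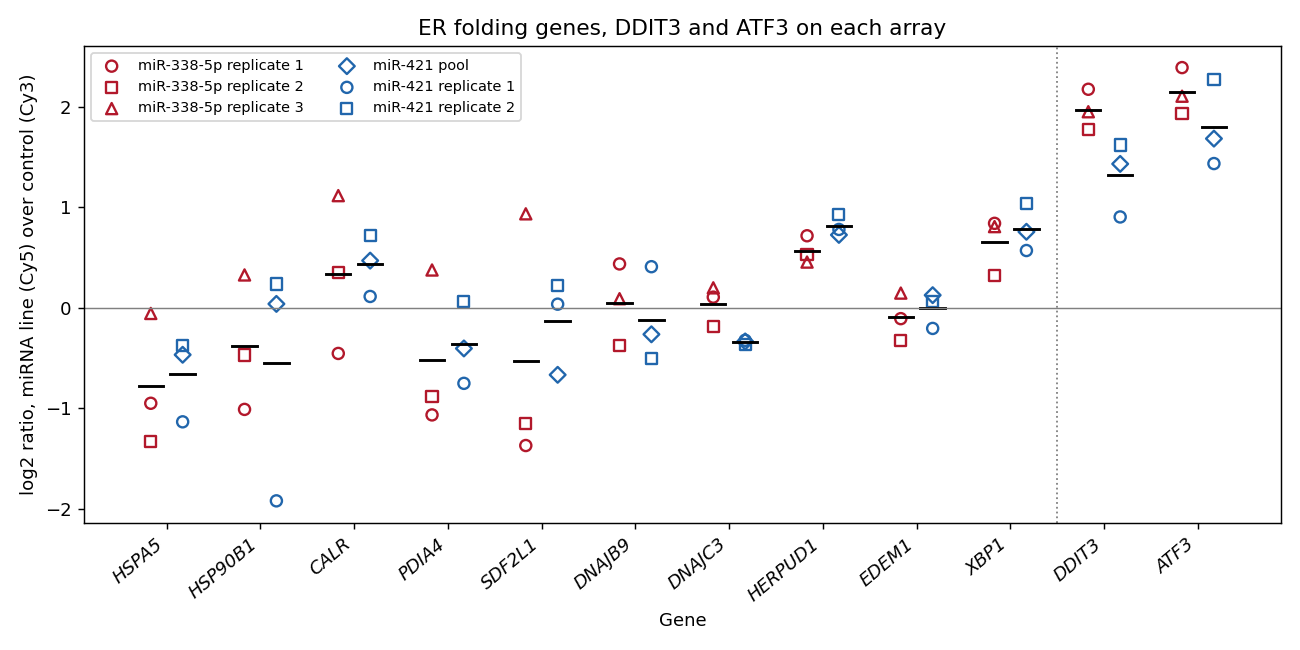
Log2 ratio of the miRNA line over control for each member and for DDIT3 and ATF3, with 1 point per array (3 per line) and a bar at the mean of each line. HERPUD1, XBP1, DDIT3 and ATF3 lie above 0 on all 6 arrays, HSPA5 lies below 0 on all 6, and the other members cross 0.

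HERPUD1 encodes a membrane protein of ER-associated degradation, the route by which misfolded proteins are passed to the proteasome (NM_014685; probe at chr16:56977700-56977759, plus strand, hg19). Its log2 ratios were 0.71, 0.53 and 0.45 on miR-338-5p replicates 1, 2 and 3, and 0.72, 0.78 and 0.92 in the miR-421 pool and replicates 1 and 2. All values were above 0. The lowest miR-421 ratio lay just above the highest miR-338-5p ratio, so the ratios did not overlap between the lines. The log2 Cy5 signals, with mean intensities made alike between arrays, did overlap. They were 12.93, 12.70 and 12.62 for miR-338-5p and 12.71, 12.63 and 13.13 for miR-421. The mean log2 Cy3 control signal was 12.19 on the miR-338-5p arrays and 12.02 on the miR-421 arrays. HERPUD1 rose under miR-338-5p by 0.56 ± 0.14 (SD, n = 3; 1.48-fold; limma adjusted p = 0.0145) and under miR-421 by 0.81 ± 0.10 (SD, n = 3; 1.75-fold; limma adjusted p = 0.00379). The difference of the lines, -0.24 with a 95% interval from -0.49 to 0.01, did not pass (limma adjusted p = 0.376). The call under miR-338-5p held in 8 of 18 alternative analyses. It ended without replicate 1 (0.49, adjusted p = 0.0527), without replicate 2 (0.58, 0.0556) and without replicate 3 of that line (0.62, 0.0518). The call under miR-421 held in 17 of 18.

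XBP1 encodes the transcription factor that IRE1 switches on by splicing its messenger RNA (NM_005080; probe at chr22:29190733-29190792, minus strand, hg19). This probe was printed on 10 spots of each array, with an SD between spots of 0.028 to 0.056, whereas the probe of each other member had 1 spot. Splice forms were not analysed here. The log2 ratios were 0.84, 0.32 and 0.81 for miR-338-5p and 0.75, 0.57 and 1.04 for miR-421, in the order given for HERPUD1, which is kept from here on. All were above 0, replicate 2 of miR-338-5p was the lowest, and the lines overlapped. XBP1 rose by 0.66 ± 0.29 under miR-338-5p (SD, n = 3; 1.58-fold; limma adjusted p = 0.038) and by 0.79 ± 0.24 under miR-421 (SD, n = 3; 1.72-fold; limma adjusted p = 0.0144). The difference was -0.13, with a 95% interval from -0.58 to 0.32 (limma adjusted p = 0.811).

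The rise of XBP1 under miR-338-5p held in 6 of 18 alternatives, with adjusted p-values up to 0.382, and that under miR-421 in 16 of 18, up to 0.163. The call under miR-338-5p ended without replicate 1 (0.56, adjusted p = 0.133) and without replicate 3 (0.58, 0.147) of that line. Leaving out the pool (adjusted p = 0.0743) or replicate 2 (0.0623) of miR-421 ended it too, although these enter only the shared estimate of the spread. The call under miR-421 ended without its replicate 2 (0.66, 0.0804). The SD between spots was smaller than that between the arrays of either line.

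HSPA5 encodes BiP, the main Hsp70 chaperone of the ER lumen, which also holds the sensors inactive (NM_005347; probe at chr9:127997149-127997208, minus strand, hg19). The log2 ratios were -0.95, -1.33 and -0.06 for miR-338-5p and -0.47, -1.14 and -0.38 for miR-421. All 6 lay below 0, but replicate 3 of miR-338-5p was close to it, and the lines overlapped. The means were -0.78 ± 0.65 (SD, n = 3), a Cy5 signal 58.3% of Cy3, and -0.66 ± 0.41 (SD, n = 3), 63.2% of Cy3. Neither passed after adjustment over all probes (limma adjusted p = 0.121 and 0.121). The 95% intervals of single means were -1.41 to -0.14 and -1.30 to -0.03. HSPA5 passed in 0 of 18 alternatives for either line, with adjusted p-values from 0.0732 to 0.386 and from 0.0586 to 0.394. After mean intensities were made alike between arrays, the log2 Cy3 signal of the probe was between 8.84 and 9.19 on the 6 arrays. The Cy5 signal was between 7.79 and 9.09, so the spread was wider in Cy5.

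HSP90B1 encodes GRP94, the Hsp90 chaperone of the ER (NM_003299; probe at chr12:104341536-104341595, plus strand, hg19). The arrays gave log2 ratios of -1.01, -0.47 and 0.33 for miR-338-5p and 0.04, -1.92 and 0.23 for miR-421. Replicate 1 of miR-421 stood well below the other arrays, and each line had values on both sides of 0. The means, -0.39 ± 0.67 (SD, n = 3; limma adjusted p = 0.653) and -0.55 ± 1.19 (SD, n = 3; limma adjusted p = 0.431), did not pass. Without miR-421 replicate 1 the miR-421 mean was 0.14. That array also had the lowest share of Cy5 gene spots above background, 41.9%, and the part of this in the value was not tested. The second HSP90B1 probe gave -0.80, -0.38 and 0.21, then -0.03, -1.31 and 0.16, and so had the same low array.

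PDIA4 encodes a disulfide isomerase that forms and rearranges disulfide bonds (NM_004911; probe at chr7:148700904-148700963, minus strand, hg19). Its log2 ratios were -1.07, -0.88 and 0.37 for miR-338-5p and -0.41, -0.75 and 0.06 for miR-421. Replicate 3 of miR-338-5p and replicate 2 of miR-421 were above 0 and the others below, and the lines overlapped. The means were -0.52 ± 0.78 (SD, n = 3; limma adjusted p = 0.322) and -0.36 ± 0.41 (SD, n = 3; limma adjusted p = 0.422).

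SDF2L1 encodes a lumenal partner of BiP complexes (NM_022044; probe at chr22:21998511-21998570, plus strand, hg19). The ratios on the log2 scale were -1.37, -1.15 and 0.93 for miR-338-5p and -0.67, 0.03 and 0.22 for miR-421. The miR-338-5p line held both the lowest and the highest value. The means were -0.53 ± 1.27 (SD, n = 3; limma adjusted p = 0.518) and -0.14 ± 0.47 (SD, n = 3; limma adjusted p = 0.86). In that line the log2 Cy5 signals of the probe were 12.4, 12.6 and 14.41.

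CALR encodes calreticulin, a chaperone that binds glycoproteins and calcium (NM_004343; probe at chr19:13055230-13055289, plus strand, hg19). Its log2 ratios were -0.46, 0.35 and 1.11 for miR-338-5p and 0.47, 0.11 and 0.72 for miR-421. It was above 0 on all arrays but miR-338-5p replicate 1, and the lines overlapped. The means were 0.34 ± 0.78 (SD, n = 3; limma adjusted p = 0.514) and 0.43 ± 0.30 (SD, n = 3; limma adjusted p = 0.32).

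For HSPA5, HSP90B1, PDIA4, SDF2L1 and CALR alike, replicate 3 was the highest of the miR-338-5p arrays. The same held for DNAJC3 (0.20) and EDEM1 (0.14), whereas DNAJB9, HERPUD1 and XBP1 were highest on replicate 1 (0.43, 0.71 and 0.84). The median over all 10 members was -0.28, -0.35 and 0.35 on the miR-338-5p arrays and -0.11, -0.09 and 0.14 on the miR-421 arrays. The log2 Cy3 signal of any member's probe moved over the 6 arrays by at most 0.57, the value of CALR.

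**Figure D3:**
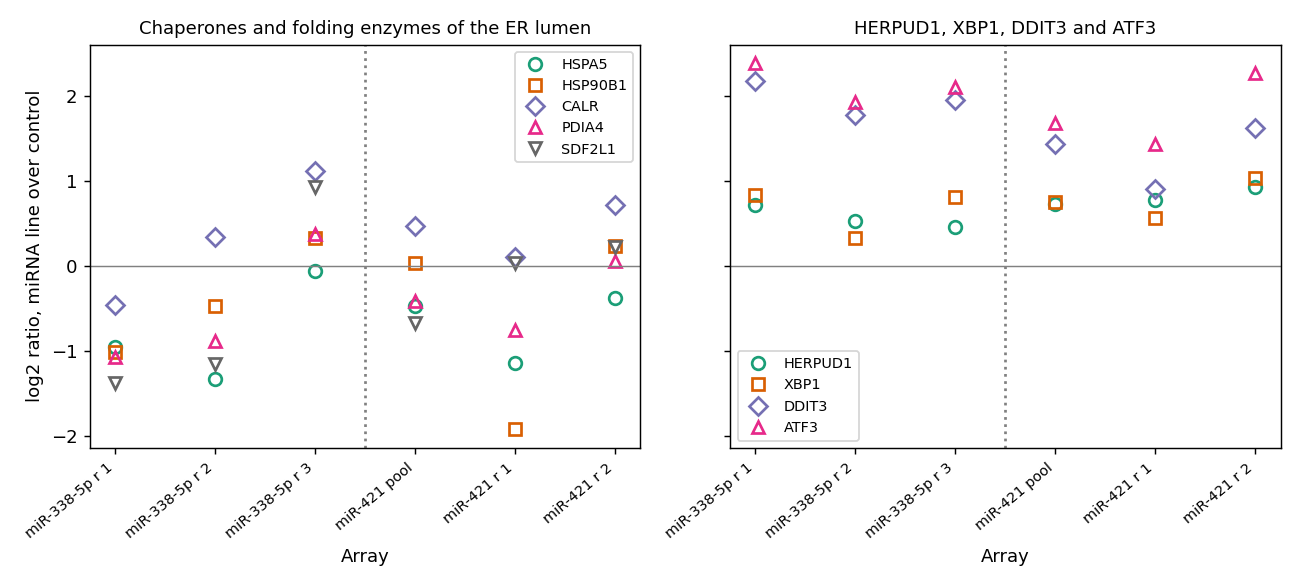
Log2 ratio of the miRNA line over control on each of the 6 arrays for 5 lumenal members (left) and for HERPUD1, XBP1, DDIT3 and ATF3 (right); r is replicate and the dotted line parts the miRNA lines. The 5 members on the left are highest on replicate 3 among the miR-338-5p arrays, while the genes on the right are above 0 on all 6 arrays.

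DNAJC3 encodes p58IPK, a lumenal co-chaperone of BiP (NM_006260; probe at chr13:96443238-96443297, plus strand, hg19). The log2 ratios were 0.10, -0.19 and 0.20 for miR-338-5p and -0.34, -0.32 and -0.36 for miR-421. The miR-421 values lay close together and all below the miR-338-5p values, so the lines did not overlap. DNAJC3 fell under miR-421, with a mean of -0.34 ± 0.02 (SD, n = 3; 78.9% of Cy3; limma adjusted p = 0.0344), and was at 0.04 ± 0.20 under miR-338-5p (SD, n = 3; limma adjusted p = 0.815). The difference of 0.38, with a 95% interval for this gene alone from 0.10 to 0.66, did not pass after adjustment (limma adjusted p = 0.25). The fall held in 11 of 18 alternatives, with values from -0.33 to -0.76, the lowest in the authors' deposited ratios. The probe was dim, with a mean log2 intensity of 6.76. Its miR-421 mean was -0.55 with no background correction and -0.70 with subtracted background, so the size of the fall depended on this step. It ended without the miR-421 pool (-0.34, adjusted p = 0.105), without miR-421 replicate 1 (-0.35, 0.097) or replicate 2 (-0.33, 0.143), and without miR-338-5p replicate 1 (-0.34, 0.0575). A second DNAJC3 probe was well above background on 0 arrays and was not tested.

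DNAJB9 encodes ERdj4, a co-chaperone of BiP that acts on IRE1 (NM_012328; probe at chr7:108214515-108214574, plus strand, hg19). On the arrays its log2 ratios were 0.43, -0.38 and 0.09 for miR-338-5p and -0.27, 0.41 and -0.50 for miR-421. Both lines had values on both sides of 0 and overlapped. The means were 0.05 ± 0.41 (SD, n = 3; limma adjusted p = 0.916) and -0.12 ± 0.47 (SD, n = 3; limma adjusted p = 0.728).

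EDEM1 encodes a lectin-like protein that sends misfolded glycoproteins to degradation (NM_014674; probe at chr3:5260840-5260899, plus strand, hg19). EDEM1 had log2 ratios of -0.11, -0.33 and 0.14 for miR-338-5p and 0.12, -0.21 and 0.06 for miR-421. Each line had values on both sides of 0, and the lines overlapped. The means were -0.10 ± 0.24 (SD, n = 3; limma adjusted p = 0.63) and -0.01 ± 0.18 (SD, n = 3; limma adjusted p = 0.976). This probe was dim too, with a mean log2 intensity of 6.64.

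DDIT3 encodes CHOP, a transcription factor of the PERK and ATF4 branch (NM_004083; probe at chr12:57911200-57911526, minus strand, hg19). Its log2 ratios were 2.17, 1.77 and 1.95 for miR-338-5p and 1.43, 0.90 and 1.62 for miR-421. All were above 0, and every miR-338-5p value lay above every miR-421 value. DDIT3 rose by 1.96 ± 0.20 (SD, n = 3; 3.9-fold; limma adjusted p = 0.00505) and 1.32 ± 0.37 (SD, n = 3; 2.49-fold; limma adjusted p = 0.00611). The difference of the lines, 0.65, did not pass (limma adjusted p = 0.275).

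ATF3 encodes a stress transcription factor that acts with ATF4 and CHOP (NM_001040619; probe at chr1:212793856-212793915, plus strand, hg19). ATF3 had log2 ratios of 2.39, 1.93 and 2.10 for miR-338-5p and 1.68, 1.43 and 2.27 for miR-421. All were above 0 and the lines overlapped. ATF3 rose by 2.14 ± 0.23 (SD, n = 3; 4.41-fold; limma adjusted p = 0.00561) and 1.79 ± 0.43 (SD, n = 3; 3.47-fold; limma adjusted p = 0.00422). Its 4 probes gave means from 0.05 to 2.14 under miR-338-5p and from 0.16 to 1.79 under miR-421. With the mean of these probes the values were 1.1 and 0.91, still past the threshold.

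The stress factors were set against HSPA5 on the same array. HSPA5 was the only member below 0 on all 6 arrays, so the differences describe HSPA5 and not the members as a set. HERPUD1 and XBP1 were above 0 on all 6 arrays, and the other members crossed 0. Under miR-421 the means of HERPUD1 and XBP1 were 0.81 and 0.79, against 1.32 for DDIT3 and 1.79 for ATF3. Under miR-338-5p they were 0.56 and 0.66, against 1.96 and 2.14. The log2 ratio of DDIT3 less that of HSPA5 was 3.12, 3.10 and 2.01 for miR-338-5p and 1.90, 2.04 and 2.0 for miR-421. It was above 0 on all 6 arrays, and the miR-421 values differed little from each other. The mean was 2.36 ± 0.58 (SD over 6 arrays). The same difference for ATF3 was 3.34, 3.26 and 2.16 for miR-338-5p and 2.15, 2.57 and 2.65 for miR-421, and it too was above 0 on all 6 arrays. Its mean was 2.69 ± 0.52 (SD over 6 arrays), and with the mean of the 4 ATF3 probes it was 1.73, also above 0 on all 6 arrays. These genes were chosen with earlier results known, and the arrays share the control and the dye orientation, so the differences are given as a description with no test. The line means were 2.74 ± 0.64 and 1.98 ± 0.07 for DDIT3 and 2.92 ± 0.66 and 2.46 ± 0.27 for ATF3 (SD, n = 3 each). With any 1 array left out, the means stayed between 2.21 and 2.45 for DDIT3 and between 2.56 and 2.79 for ATF3.

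Between the miRNAs, 0 of the 10 members differed after adjustment (limma), against 0.0473% of all probes (0.0109% higher and 0.0364% lower under miR-338-5p), and 1 of 10, DNAJC3, had an unadjusted p under 0.05. The log2 ratios of the lines did not overlap for 2 of 10 members, HERPUD1 and DNAJC3, against 19.8% of all probes. For HERPUD1 the Cy5 signals alone did overlap. The 95% interval of the HSPA5 difference (-0.12) ran from -1.02 to 0.78, which leaves room for a difference of either sign.

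Among other genes of ER folding and degradation, 6.67% passed in the miR-338-5p line and 22.2% in the miR-421 line, against 9.19% and 22.7% of all genes tested. Of 27 further chaperone and folding genes, 1 rose and 1 fell under miR-338-5p, and 1 rose and 5 fell under miR-421 (limma adjusted p under 0.05). Of 18 degradation genes, 1 rose under miR-338-5p, and 2 rose and 2 fell under miR-421. These 45 genes had a median ratio of -0.00271 in the miR-338-5p line and of -0.03 in the miR-421 line. The 3 calls among them under miR-338-5p became 0 without replicate 1 or without replicate 2 of that line, 1 without its replicate 3, 1 without the pool or replicate 2 of miR-421, and 6 without replicate 1 of miR-421. The 10 calls under miR-421 became 0 without its replicate 2, 6 without the pool, 5 without its replicate 1, and 6 without miR-338-5p replicate 3.

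FKBP11, a prolyl isomerase of the secretory pathway, had log2 ratios of -0.83, -0.80 and -0.65 for miR-338-5p and -0.50, -0.71 and -0.31 for miR-421. It was below 0 on every array, and it fell by 0.76 ± 0.10 (SD, n = 3; limma adjusted p = 0.0119) and 0.51 ± 0.20 (SD, n = 3; limma adjusted p = 0.0151). ERP44, which retains proteins in the early secretory pathway through thiols, fell under miR-421 to -0.84 ± 0.22 (SD, n = 3; limma adjusted p = 0.0106), and EDEM3, a relative of EDEM1, to -0.91 ± 0.60 (SD, n = 3; limma adjusted p = 0.0384). Both were below 0 on all 6 arrays. Under miR-338-5p their means were -0.41 and -0.73 (limma adjusted p = 0.0956 and 0.101), and the lines did not differ for either (limma adjusted p = 0.367 and 0.854). DNAJC1, an ER membrane co-chaperone of BiP named after its values were seen, had 0.60, 0.45 and 1.32 for miR-338-5p and -0.80, -0.61 and -0.72 for miR-421. It rose in the former (0.79 ± 0.47, SD, n = 3; limma adjusted p = 0.0408) and fell in the latter (-0.71 ± 0.10, SD, n = 3; limma adjusted p = 0.0327), and the difference of 1.5 did not pass (limma adjusted p = 0.1).

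Of 20 translocation and export genes tested of 22 listed, 0 passed under miR-338-5p (limma; 4 had an unadjusted p under 0.05), and 2 fell under miR-421, which is 10% of them against 12.6% of all genes tested. Of 10 sensor and regulator genes tested of 11, 2 rose under miR-338-5p, ERN1 and ATF6, and 3 rose under miR-421, those and CREB3L1. The shares past the threshold in either direction were 20% and 30%, against 9.19% and 22.7% of all genes tested, so that under miR-421 was near the share of all genes. All of these calls were rises, and 3.96% and 10% of all genes tested rose. The 3 genes were named after their values were seen. ERN1 had log2 ratios of 1.20, 0.72 and 0.76, then 0.79, 0.81 and 0.67, and rose in both lines (0.89 ± 0.27, limma adjusted p = 0.012, and 0.76 ± 0.08, limma adjusted p = 0.00896; SD, n = 3). ATF6 had 1.01, 1.21 and 0.94, then 0.48, 0.26 and 0.65, without overlap of the lines. ATF6 rose by 1.05 ± 0.14 (SD, n = 3; limma adjusted p = 0.0062) and 0.46 ± 0.19 (SD, n = 3; limma adjusted p = 0.0222), and the difference of 0.59 did not pass (limma adjusted p = 0.165). EIF2AK3, the gene of PERK, had means of 0.00 ± 0.22 and -0.24 ± 0.21 (SD, n = 3; limma adjusted p = 0.999 and 0.179). Its probe was dim, with a mean log2 intensity of 6.51 and Cy5 above background on 5 of 6 arrays.

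Genes of the stress response around ATF4, a list written with earlier results of these data known, were mostly higher. Of 24 tested of 25 listed, 11 rose and 1 fell under miR-338-5p, and 17 rose and 1 fell under miR-421 (limma adjusted p under 0.05), with medians of 0.78 and 0.88. Over all genes tested, 3.96% were higher and 5.23% lower under miR-338-5p, and 10% were higher and 12.6% lower under miR-421. The largest rises were those of CHAC1, an enzyme that degrades glutathione, TRIB3, a pseudokinase, and JDP2, a transcription factor related to ATF3. CHAC1 rose by 2.01 ± 0.38 and 2.23 ± 0.30, TRIB3 by 1.73 ± 0.30 and 2.13 ± 0.27, and JDP2 by 1.49 ± 0.60 and 1.81 ± 0.03 (SD, n = 3; limma adjusted p from 0.00242 to 0.0166). ATF4 itself, named after its values were seen, rose by 0.98 ± 0.11 (SD, n = 3; limma adjusted p = 0.00833) and 0.80 ± 0.23 (SD, n = 3; limma adjusted p = 0.00713). ATF5, a transcription factor related to ATF4, was the gene that fell, to -1.07 ± 0.46 (SD, n = 3; limma adjusted p = 0.0205) and -1.42 ± 0.07 (SD, n = 3; limma adjusted p = 0.00623). The 12 calls under miR-338-5p became 6 without replicate 1 and 7 without replicate 3 of that line, and the 18 under miR-421 became 6 without its replicate 2.

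**Figure D4:**
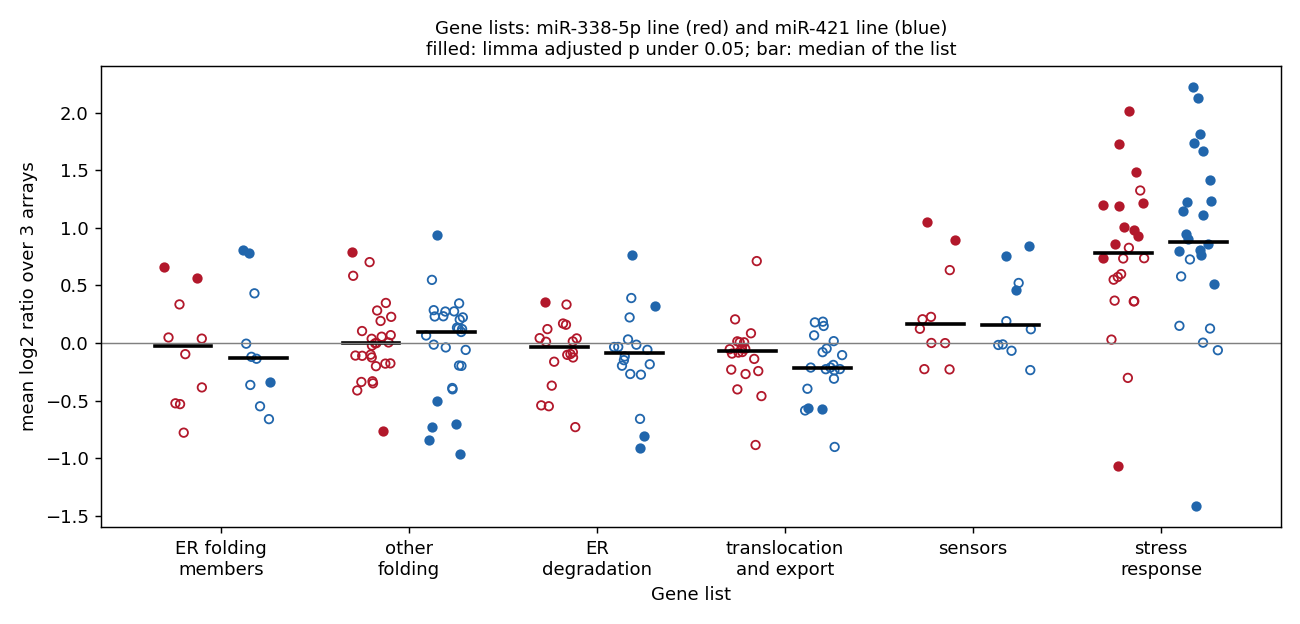
Mean log2 ratio of the miRNA line over control for every tested gene of each list, by miRNA line; each point is 1 gene, filled where its limma adjusted p was under 0.05, and the horizontal bar is the list's median. The stress response list has medians of 0.78 and 0.88, while the lists of folding and degradation genes are spread around 0.

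The genes whose log2 ratios followed those of HSPA5 most closely over the 6 arrays were LLGL2 (Pearson r = 0.990), INMT (0.987), MMAB (0.983), SGSH (0.982) and CCDC24 (0.978). They were the top 5 of 7326 genes with a range at least 0.5 times that of HSPA5. The likeness is one of pattern and not of level. LLGL2 was above 0 only on miR-338-5p replicate 3 (0.13). MMAB and SGSH were below 0 only on miR-338-5p replicate 2 (-0.0016 and -0.095), and INMT and CCDC24 were mixed. The arrays share the control line and were labelled in 1 orientation, and with 6 points the order is a description of these arrays only.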

How the data were processed

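Messenger RNA was measured on 6 Agilent arrays with 2 dyes, 3 per miRNA line. The deposited intensity values are the mean spot brightness and median local background of either dye, read by the authors with Feature Extraction 11.5.1.1, per the file headers, and not normalized. The log10 ratio that the authors deposited for each spot was background-subtracted and dye-normalized by that software, per the file headers. The whole-series table deposited by the authors holds log2 ratios whose normalization is not stated; both ratios served as alternatives. Per the labels' protocols, a poly(A) tail was added before oligo-dT labelling, so RNA without a tail can contribute.

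Background was corrected by normexp (offset 50) and arrays by loess, control spots at weight 0. Outlier spots were left out, and spots of a probe averaged. Signals given for a single dye were taken after quantile normalization of the mean intensity between arrays, a step that the ratios did not use. Probes above background on at least 3 arrays (27509) entered 1 fit in limma 3.58.1 (R 4.3.3) with a mean per line, two-sided, with Benjamini-Hochberg adjustment over all probes at 0.05. If 1 control RNA supplied every array, its own spread is not in the tests. From the other pathway lists, the 3 largest rises and falls per line were named among genes past the threshold with 1 sign on all 3 arrays; miR-338-5p had 2 such falls. The test planned for DDIT3 and ATF3 less HSPA5 is not reported, because the genes were chosen with results known. The members and lists were chosen with earlier results of these data known. The number of arrays limits the precision.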

Additional observations from a re-analysis of the deposited data

How the results depend on the processing

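Alternatives covered background, normalization, the ratio used, filters, outlier spots, probes per gene, variance model, arrays in the fit and each array left out. Counts of members past the limma threshold under miR-338-5p (2) became 0 with subtracted background, the image software's ratio, median centring, the authors' table, trended variance (3 at an unadjusted p under 0.05 in each of these) or the line's arrays alone, and 1 with no filter on dim probes. Among folding and degradation genes the 3 under miR-338-5p became 0 with trended variance and 1 with the line's arrays alone, and the 10 under miR-421 became 3 with median centring, 6 with the software's ratio and 5 with no filter. The 12 stress response genes under miR-338-5p became 0 with trended variance (19 unadjusted), which called 0 of 27507 probes in that line, and 7 with the line's arrays alone. With the replicate number as a block on the arrays numbered 1 and 2, counts of members, folding and degradation genes and stress response genes past the threshold were 0 in both lines, as were the calls over all probes. At an unadjusted p under 0.05, 4 and 5 members passed with that block. Samples with the same number did not deviate together (r = -0.14 for number 1 and -0.21 for number 2), and the labels do not tie them. Leaving out 1 array gave 0 to 2 members under miR-338-5p, 1 to 3 under miR-421 and 0 in the difference. It gave 0 to 6 and 0 to 8 folding and degradation genes, and 6 to 14 and 6 to 17 stress response genes. Without 1 array, DDIT3 less HSPA5 ranged from 2.21 to 2.45 and ATF3 less HSPA5 from 2.56 to 2.79. Over all 15 alternatives these ranged from 2.21 to 2.64 and from 1.73 to 2.83. The lowest ATF3 value came with the mean of a gene's probes, and the authors' deposited table gave 2.19.

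Changes of sign concerned values that had not passed. Under median centring these were DNAJB9 (-0.16) and DNAJC3 (-0.10) under miR-338-5p, SDF2L1 under miR-421 (0.10) and HSP90B1 in the difference (-0.084). EDEM1 under miR-421 was 0.0135 with subtracted background, 0.0138 with the software's ratio and 0.0165 in the authors' deposited table, and DNAJB9 was 0.00554 and 0.00453 in the last 2 of these. With the replicate block, DNAJC3 (-0.042) and CALR (-0.054) under miR-338-5p and SDF2L1 under miR-421 (0.13) turned. Leaving out 1 array, under miR-338-5p DNAJB9 ranged from -0.15 to 0.26, EDEM1 from -0.22 to 0.018, DNAJC3 from -0.042 to 0.15 and CALR from -0.054 to 0.73. Under miR-421 SDF2L1 ranged from -0.32 to 0.13, HSP90B1 from -0.94 to 0.14, EDEM1 from -0.071 to 0.094 and DNAJB9 from -0.38 to 0.071. In the difference DNAJB9 ranged from -0.025 to 0.43, PDIA4 from -0.61 to 0.11, SDF2L1 from -1.13 to 0.026, CALR from -0.49 to 0.30, HSPA5 from -0.48 to 0.16, EDEM1 from -0.21 to 0.024, XBP1 from -0.24 to 0.036 and HSP90B1 from -0.52 to 0.56. The cause was not tested.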
